A study of Homo sapiens with 34 samples.

Results

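The 8 genes CD80, CD86, ICOSLG, CD274, CD83, CD69, ICAM1 and CD58 encode surface proteins with which blood cells show activation, speak to T cells and hold on to other cells. They were taken by their symbols from the count files, which list 23368 gene symbols, and all 8 were found in each of the 34 libraries. The libraries come from 6 human blood cancer lines, grown without drug (control) or with 10 uM etoposide for 4 hours. Etoposide is a topoisomerase II poison used in chemotherapy, and it breaks both strands of DNA in treated cells. NALM6 and 697 are pre-B lines from acute lymphoblastic leukemia, RAMOS is a mature B line from Burkitt's lymphoma, JURKAT is a T line from acute T cell leukemia, and THP1 and U937 are monocyte lines from leukemias, as labelled. All groups were grown in the same medium, RPMI with fetal calf serum. The groups hold 3 libraries each, apart from 697 etoposide and U937 control with 2. A cell line stands for 1 tumour, the genotypes are not given in the labels, and no other cell type was present to answer the surface proteins.

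CD80 and CD86 are the B7 ligands that bind CD28 and CTLA4 on T cells, and in dendritic cells and B cells they are switched on by activating signals. ICOSLG is the B7 ligand of ICOS, and CD274, also called PD-L1, binds PD-1 and restrains T cells. CD83 is a marker of mature dendritic cells and activated B cells, and CD69 is an early activation marker of lymphocytes that holds them in tissue. ICAM1 is the ligand of the integrin LFA-1, and CD58 is the ligand of CD2, so both tie a cell to a T cell or NK cell. ICAM1, CD83 and CD80 are textbook targets of NF-κB, a family of transcription factors that DNA breaks can set free.

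The RefSeq promoter table on build GRCh38.p14 held start sites of 7 of the 8 genes, with 9 windows of 250 bases before a start site. Each window was searched on both strands for the NF-κB consensus, for GGAANTTCC, a symmetric form of the NF-κB site, and for the AP-1 motif TGANTCA. Matches to the consensus and to GGAANTTCC overlap where a stretch meets both. Among 35116 start sites of all genes, 9.96% held the consensus, 0.826% held GGAANTTCC and 6.57% held TGANTCA in the same window. Before its downstream start site CD83 had 6 consensus matches in 3 places, several of them overlapping, and 1 match to GGAANTTCC, while CD86 had 2 overlapping consensus matches before its downstream start site. ICAM1 had 1 match to GGAANTTCC. In the GENCODE annotation, all 250 bases of the ICAM1 window and 131 of this CD83 window also lie in an exon of another transcript of the same gene. CD80, CD274, CD58, ICOSLG and the upstream start sites of CD83 and CD86 had no match, and TGANTCA was in none of the 9 windows. The matches are shown because CD83 and ICAM1 were the genes that rose in the most lines, and each is given in 30 bases of the plus strand with the matched letters in capitals.
ICAM1, chr19:10270924-10270953: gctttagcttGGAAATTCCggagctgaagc
CD83, chr6:14117628-14117657: ggcggggacgGGGGCGCCCCggcctaagcg
CD83, chr6:14117687-14117716: ctgcccgccGGGGAATCCCCCgggctggcg
CD83, chr6:14117712-14117741: tggcgcgcaGGGAAGTTCCCgaacgcgcgg
CD86, chr3:122077693-122077722: gctccctttGGGGGTTTCCCagggctttac
The ICAM1 stretch lay 196 to 167 bases before the start site, the CD83 stretches 144 to 115, 85 to 56 and 60 to 31 bases before, and the CD86 stretch 91 to 62 bases before. The whole window of CD80, which had none of the 3 motifs, is shown for contrast, since CD80 went from no reads to many in both pre-B lines. It lies on the minus strand at chr3:119559615-119559864 and outside every exon of CD80 in the GENCODE annotation.
CD80, 250 bases before the start site: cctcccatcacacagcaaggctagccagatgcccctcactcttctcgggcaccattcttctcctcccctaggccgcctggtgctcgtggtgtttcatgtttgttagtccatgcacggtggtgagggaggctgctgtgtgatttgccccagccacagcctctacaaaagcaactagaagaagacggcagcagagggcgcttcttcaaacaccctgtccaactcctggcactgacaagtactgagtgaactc
A match describes letters only, and its absence says nothing of a factor outside these windows.

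Library totals, in units of 1000000 counts, ran from 11.1 to 34.2 in NALM6, from 14.03 to 23.3 in 697, from 8.18 to 22.8 in RAMOS, from 9.58 to 20.4 in JURKAT, from 18.7 to 24.8 in THP1 and from 22.2 to 37.1 in U937. Levels are counts per 1000000 (CPM) on 1 scale over all 34 libraries, as mean ± SD. Summed markers of the labelled cell type were high in each line: pre-B markers summed to 3882 to 4209 CPM in NALM6 controls and 4584 to 4741 CPM in 697 controls, B markers to 3982 to 4321 CPM in RAMOS controls, T markers to 2044 to 2182 CPM in JURKAT controls, and myeloid markers to 5004 to 5542 CPM in THP1 and 5629 to 5706 CPM in U937 controls. The file names carry 4 different SLX codes. Libraries that share a code are called a pool here, a name given in this report and not taken from a label. NALM6 and 697 controls shared 1 pool and their etoposide libraries another, so pool and treatment cannot be told apart in these lines, whereas each of the other 4 lines lay in 1 pool. In bulk RNA, fewer cells with a transcript and less transcript per cell cannot be told apart either.

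Across the 6 lines, 40 of the 48 pairs of gene and line had enough reads to be tested. The gene rose in 27 of these, fell in 1 and did not pass in 12, by edgeR's quasi-likelihood test at an adjusted p under 0.05. In NALM6 6 of the 8 genes rose and none fell, where 41.3% of all genes tested were called higher, 40.3% lower and 81.5% in either direction. In 697 6 of 7 tested rose, against 39.4% of all genes called higher, 36.9% lower and 76.3% in either direction. In RAMOS 6 of 8 rose and 1 fell, against 34.2% higher, 35.5% lower and 69.7% in either direction. In JURKAT 2 of 5 tested rose, against 6.71% higher, 6.27% lower and 13% in either direction. In THP1 4 of 6 rose, against 14% higher, 17.0% lower and 31.0% in either direction, and in U937 3 of 6 rose, against 22.1% higher, 22.1% lower and 44.2% in either direction. All etoposide libraries lay above all controls for the same number of tested genes as rose in each line, where 40.2%, 42.4%, 34%, 15.2%, 20.1% and 31.9% of all genes did so in NALM6, 697, RAMOS, JURKAT, THP1 and U937. They all lay below for 1 gene in RAMOS and 1 in JURKAT, where 40.3%, 41.1%, 34.7%, 14.4%, 21.6% and 30.5% of all genes did so in the same order of lines. The median log2 change of the genes tested was 3.16 in NALM6, 3.19 in 697, 1.70 in RAMOS, 0.53 in JURKAT, 0.35 in THP1 and 0.42 in U937, with genes at 0 reads in controls entered at their lower bound. The median over all genes lay between -0.0022 and 0.047. Scaling by TMM takes most genes as unchanged and so holds that median near 0, which makes it no independent measure to set the 8 genes against. The counts and medians above cover genes that passed a filter on low reads and include genes that passed it only through their etoposide libraries.

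**Figure D1:**
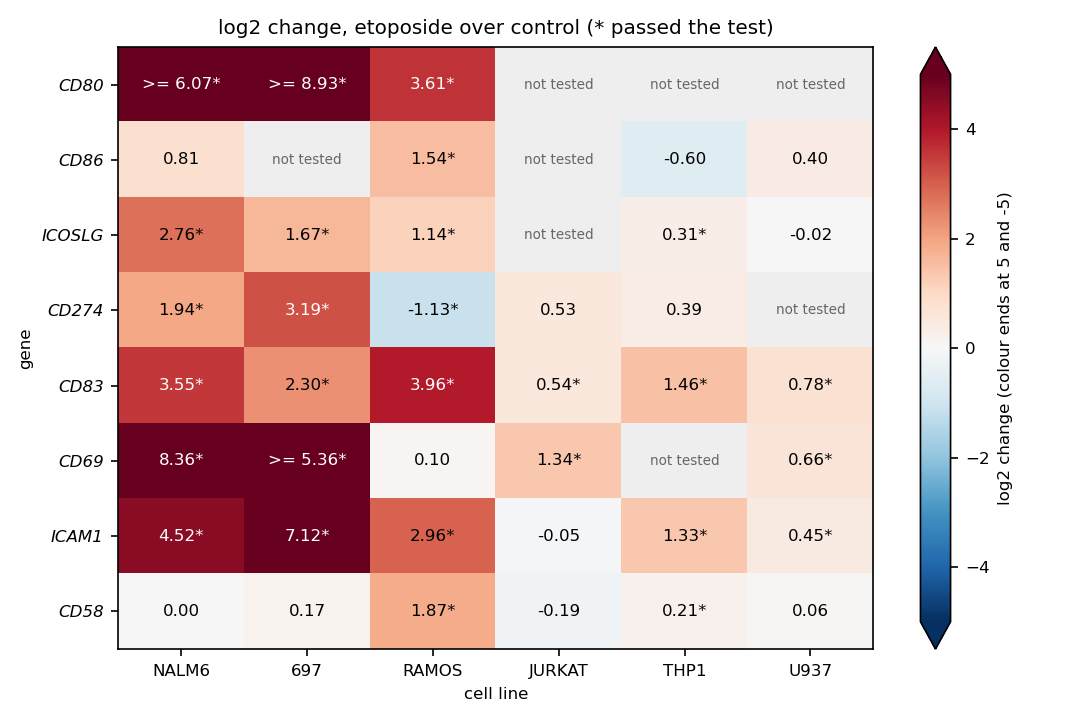
Log2 change after etoposide for each gene (rows) in each line (columns), with an asterisk where the edgeR test passed and "not tested" where reads were too few. CD83 rose in all 6 lines, ICAM1 in 5, and CD274 fell in RAMOS by 1.13; values with a ">=" sign are lower bounds because the controls held no reads.

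CD80 went from no detectable transcript to a clear signal in both pre-B lines and rose 12.2-fold in RAMOS. In NALM6 the 3 controls had 0 reads each, which allows up to 0.0537 CPM over the group, and the etoposide libraries had 3.23, 3.99 and 3.56 CPM (53, 66 and 49 reads). That is at least 67.0-fold higher, and the edgeR adjusted p was 2.15e-15. In 697 the 3 controls again had 0 reads, and the etoposide libraries had 28.4 and 26.4 CPM (581 and 347 reads), at least 488.5-fold higher (edgeR adjusted p = 3.24e-13). RAMOS controls held 0.242, 0.374 and 0.758 CPM, and RAMOS etoposide libraries held 5.25, 7.43 and 6.30 CPM. The groups did not overlap, and the log2 change was 3.61 ± 0.35 (SE, edgeR adjusted p = 3.80e-16), or 4.20 without RAMOS control replicate 3. The highest library among JURKAT, THP1 and U937 held 0.621 CPM, and CD80 was not tested there: JURKAT had 13 reads in controls and 21 after etoposide, THP1 4 and 11, and U937 0 and 4. The RefSeq span of CD80 overlaps TIMMDC1, a gene of the opposite strand for assembly of respiratory complex I, and whether counting used the strand is not given in the sources used here. TIMMDC1 stood at 69.2 ± 2.31 CPM in NALM6 controls while CD80 had 0 reads. It did not pass in NALM6 (log2 change 0.10 ± 0.06, edgeR adjusted p = 0.121) or in RAMOS (0.04 ± 0.07, edgeR adjusted p = 0.647), and it rose in 697 from 52.0 ± 2.51 to 92.3 ± 1.88 CPM.

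CD86, the other ligand of CD28 and CTLA4, rose in RAMOS and passed in no other line. Its RAMOS levels were 7.63, 7.48 and 9.01 CPM in controls and 21.5, 23.6 and 25.6 CPM after etoposide, 2.90-fold higher (log2 change 1.54 ± 0.11, edgeR adjusted p = 4.87e-18). Every treated RAMOS library lay above every control. In NALM6 the levels were 0.185, 0.454 and 0.983 CPM in controls and 0.976, 1.33 and 0.436 CPM after etoposide, so the groups overlapped, and the log2 change of 0.81 ± 0.47 did not pass (edgeR adjusted p = 0.106). It passed without NALM6 control replicate 3 (adjusted p = 0.0272) or without NALM6 etoposide replicate 3 (adjusted p = 0.0343). In 697 there were 2 reads in the controls together and 11 after etoposide, a ratio of 8.69 with a 95% counting interval from 1.90 to 80.6, and it was not tested. U937 went from 1.18 ± 0.293 to 1.55 ± 0.483 CPM (edgeR adjusted p = 0.377) and THP1 from 0.465 ± 0.152 to 0.317 ± 0.317 CPM (edgeR adjusted p = 0.484), with overlap in both, and JURKAT, which was not tested, held 0.342 to 0.554 CPM over its 6 libraries. The RefSeq span of CD86 overlaps ILDR1, which was at 0.918 ± 0.207 and 1.55 ± 0.244 CPM in RAMOS before and after etoposide.

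ICOSLG, the ligand of ICOS, was already well expressed in 5 lines and rose in 4 of them. NALM6 went from 27.3, 26.1 and 24.7 CPM to 174.5, 169 and 178 CPM, 6.79-fold (log2 change 2.76 ± 0.06, edgeR adjusted p = 4.10e-36). In 697 it went from 58.3, 57.9 and 61.8 CPM to 188 and 186 CPM, 3.19-fold (log2 change 1.67 ± 0.06, edgeR adjusted p = 1.87e-13). RAMOS went from 36.6, 37.1 and 39.3 CPM to 87.0, 77.3 and 84.0 CPM, 2.20-fold (log2 change 1.14 ± 0.06, edgeR adjusted p = 3.09e-23). In these 3 B-lineage lines the treated libraries all lay above the controls. The rise in THP1 was small, from 39.7 ± 1.40 to 49.3 ± 2.34 CPM or 1.24-fold (edgeR adjusted p = 0.000264), also without overlap. U937, which held the most ICOSLG among controls, had 90.0 and 84.9 CPM in controls and 90.4, 88.3 and 80.9 CPM after etoposide, and it did not pass (log2 change -0.02 ± 0.06, edgeR adjusted p = 0.791). JURKAT had 7 reads in controls and 16 after etoposide and was not tested.

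CD274 split the B-lineage lines: it rose in both pre-B lines and fell in RAMOS. NALM6 went from 1.85, 1.59 and 1.76 CPM to 7.08, 6.47 and 5.67 CPM, 3.85-fold (log2 change 1.94 ± 0.22, edgeR adjusted p = 4.21e-11). The controls of 697 held 2.46, 1.25 and 2.96 CPM and its etoposide libraries 20.9 and 20.8 CPM, 9.16-fold higher (log2 change 3.19 ± 0.22, edgeR adjusted p = 1.44e-09). RAMOS moved the other way, from 1.94, 1.40 and 1.42 CPM to 0.644, 0.450 and 0.980 CPM, a fall without overlap (log2 change -1.13 ± 0.37, edgeR adjusted p = 0.00509). These RAMOS levels rest on 76 reads in controls and 34 after etoposide. JURKAT (1.05 ± 0.365 to 1.58 ± 0.513 CPM, edgeR adjusted p = 0.364) and THP1 (0.660 ± 0.402 to 0.873 ± 0.318 CPM, edgeR adjusted p = 0.551) overlapped and did not pass. U937 had 3 reads in controls and 17 after etoposide, a ratio of 2.80 with a 95% counting interval from 0.810 to 14.9, and was not tested.

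CD83 was the gene that rose in all 6 lines, and it did so without overlap between groups in any of them. RAMOS had the largest fold, from 38.6, 36.7 and 33.7 CPM to 552, 573 and 538.5 CPM, 15.5-fold (log2 change 3.96 ± 0.05, edgeR adjusted p = 1.88e-48). NALM6 went from 23.6, 23.8 and 23.7 CPM to 259.7, 279.5 and 279 CPM, 11.7-fold (log2 change 3.55 ± 0.06, edgeR adjusted p = 1.89e-41). In 697 it went from 66.6, 60.6 and 61.8 CPM to 308 and 305 CPM, 4.92-fold (log2 change 2.30 ± 0.06, edgeR adjusted p = 2.92e-15). In the lines outside the B lineage the rises were smaller. THP1 went from 17.9, 21.5 and 20.9 CPM to 57.8, 54.1 and 53.5 CPM, 2.74-fold (edgeR adjusted p = 1.52e-18). U937 went from 54.5 and 51.1 CPM to 90.8, 93.0 and 89.0 CPM, 1.71-fold (edgeR adjusted p = 2.51e-11). In JURKAT CD83 went from 46.6, 45.2 and 48.4 CPM to 65.6, 70.7 and 68.2 CPM, 1.45-fold (edgeR adjusted p = 1.21e-05).

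CD69 rose in NALM6, 697, JURKAT and U937 by very different amounts. In NALM6 the controls held 0.556, 0.519 and 0.702 CPM (32 reads in all) and the etoposide libraries 173, 201 and 184 CPM. That is 328-fold, a log2 change of 8.36 ± 0.26 (edgeR adjusted p = 1.54e-44). The other pre-B line, 697, had 0 reads in all 3 controls and 2.30 and 2.36 CPM (47 and 31 reads) after etoposide, at least 41.1-fold higher (edgeR adjusted p = 5.14e-07). Both pre-B lines thus rose from near 0, but the treated level in NALM6 was 186 ± 14.3 CPM and in 697 2.33 ± 0.0462 CPM. JURKAT went from 16.6, 21.6 and 17.9 CPM to 53.9, 37.4 and 51.3 CPM, 2.53-fold (log2 change 1.34 ± 0.15, edgeR adjusted p = 0.000259). U937 went from 24.7 CPM in both controls to 37.9, 38.2 and 41.6 CPM, 1.58-fold (edgeR adjusted p = 1.09e-07). In RAMOS CD69 stood at 8.35, 7.86 and 6.97 CPM in controls and 7.73, 7.80 and 8.89 CPM after etoposide, with overlap and no call (log2 change 0.10 ± 0.14, edgeR adjusted p = 0.544). THP1 had 17 reads in controls and 14 after etoposide and was not tested.

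ICAM1 rose in every line but JURKAT. The steepest rise was in 697, from 2.94, 2.91 and 3.56 CPM to 416.5 and 453.5 CPM, 139-fold (log2 change 7.12 ± 0.11, edgeR adjusted p = 2.65e-19). NALM6 went from 22.2, 25.2 and 21.6 CPM to 528, 522 and 524 CPM, 22.9-fold (log2 change 4.52 ± 0.06, edgeR adjusted p = 1.12e-46). RAMOS started from 118, 125 and 125 CPM and reached 997, 901 and 974 CPM, 7.80-fold (log2 change 2.96 ± 0.04, edgeR adjusted p = 9.98e-47). The 3 lines thus reached levels of 435 to 957 CPM on average from controls that lay between 3.14 and 123 CPM. THP1 went from 4.40, 4.15 and 3.61 CPM to 10.9, 10.3 and 9.30 CPM, 2.51-fold (edgeR adjusted p = 1.63e-09). U937 went from 68.1 and 64.7 CPM to 97.6, 90.9 and 85.7 CPM, 1.37-fold (edgeR adjusted p = 1.63e-06). JURKAT held 9.40, 8.98 and 7.57 CPM in controls and 7.30, 9.67 and 8.04 CPM after etoposide, which overlap, and the log2 change of -0.05 ± 0.15 did not pass (edgeR adjusted p = 0.872).

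CD58 rose 3.65-fold in RAMOS, and in the other 5 lines its log2 change lay between -0.19 and 0.21. In RAMOS it went from 3.51, 3.41 and 3.60 CPM to 12.6, 13.9 and 11.97 CPM (log2 change 1.87 ± 0.15, edgeR adjusted p = 1.78e-16). NALM6 held 40.3, 38.9 and 41.5 CPM in controls and 33.6, 45.1 and 40.3 CPM after etoposide (log2 change 0.00 ± 0.08, edgeR adjusted p = 0.957), with overlap. In 697 the controls held 57.4, 53.5 and 56.6 CPM and the etoposide libraries 66.6 and 56.9 CPM (log2 change 0.17 ± 0.08, edgeR adjusted p = 0.0589). The 697 change passed with other size factors (adjusted p = 0.0373) and without 697 etoposide replicate 2 (adjusted p = 0.00166). THP1 went from 23.6, 24.0 and 22.8 CPM to 27.4, 26.9 and 27.2 CPM, which did not overlap and passed narrowly (log2 change 0.21 ± 0.08, edgeR adjusted p = 0.0405). That THP1 call was lost in every alternative tried except RLE size factors, with adjusted p-values from 0.0509 to 0.115. U937 (23.1 ± 0.935 to 24.2 ± 2.24 CPM, edgeR adjusted p = 0.640) did not pass. JURKAT held 7.69 ± 0.227 CPM in controls and 6.76 ± 0.633 CPM after etoposide, with every treated library below every control, but it did not pass either (log2 change -0.19 ± 0.14, edgeR adjusted p = 0.440).

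**Figure D2:**
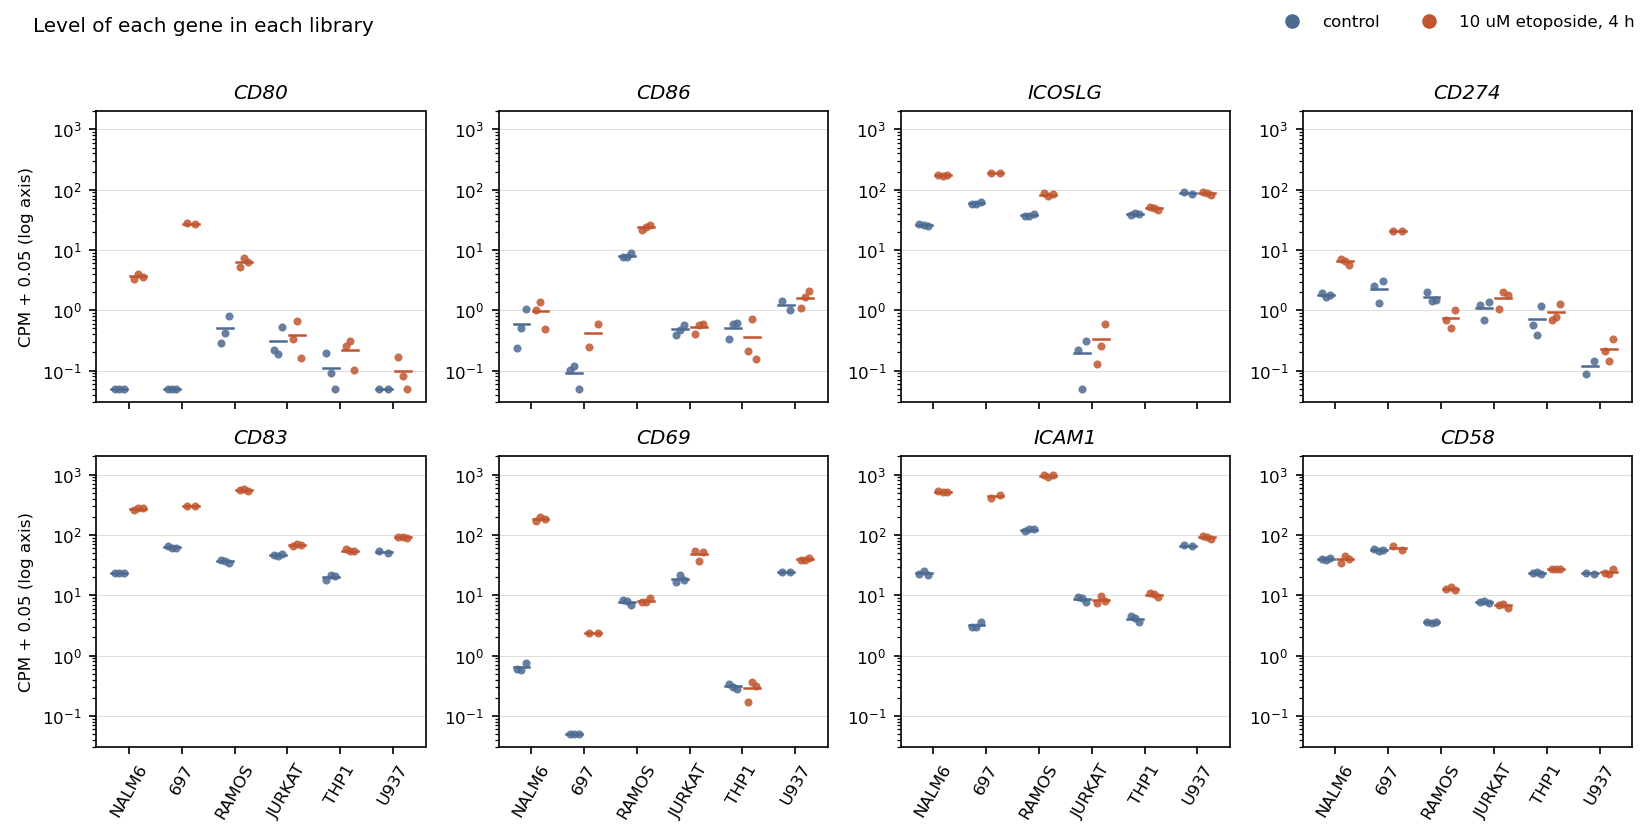
Level of each gene in each of the 34 libraries, as CPM plus 0.05 on a log axis, with controls in blue, etoposide libraries in orange and a bar at each group mean. CD80 lies at the bottom of the axis in NALM6 and 697 controls because no read was counted there, and the 2 groups of CD83 are apart in every line.

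Before treatment the lines differed in nearly every gene. Of 120 pairs of lines over the 8 genes, 102 differed in control level by the edgeR test over all 34 libraries, where between 57.1% and 81.1% of all genes differed for a given pair of lines. Of all genes, NALM6 differed from 697 in 57.1%, from RAMOS in 69.2%, from JURKAT in 78.7%, from THP1 in 78.3% and from U937 in 70.6%. The share was 71.7%, 80.8%, 78.8% and 72.4% for 697 against RAMOS, JURKAT, THP1 and U937, and 78.0%, 78.6% and 72.0% for RAMOS against JURKAT, THP1 and U937. It was 81.1% and 77.8% for JURKAT against THP1 and U937 and 71.3% for THP1 against U937. Line and pool mostly cannot be told apart in these pairs. CD80 had 26 reads in RAMOS, 13 in JURKAT, 4 in THP1 and none in NALM6, 697 and U937, and RAMOS and JURKAT did not differ (edgeR adjusted p = 0.207) while JURKAT and THP1 did (edgeR adjusted p = 0.0206). CD86 was highest in RAMOS at 8.04 ± 0.841 CPM, then came U937 at 1.18 ± 0.293 CPM, and NALM6, THP1 and JURKAT followed at 0.541, 0.465 and 0.432 CPM with no difference between neighbours, while 697 was last at 0.0410 CPM. ICOSLG ran from U937 at 87.5 ± 3.60 CPM through 697 at 59.3, THP1 at 39.7, RAMOS at 37.6 and NALM6 at 26.0 CPM to JURKAT at 0.145 CPM, and THP1 and RAMOS were the neighbours that did not differ (edgeR adjusted p = 0.392). CD274 was low everywhere, at 2.22 CPM in 697, 1.73 in NALM6, 1.59 in RAMOS, 1.05 in JURKAT, 0.660 in THP1 and 0.0683 CPM in U937, and only the last step between neighbours passed (edgeR adjusted p = 0.000117).

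CD83 in controls ran from 63.0 ± 3.18 CPM in 697 through U937, JURKAT, RAMOS and NALM6 to 20.1 ± 1.91 CPM in THP1, and each step passed with edgeR adjusted p-values of 0.0181 or lower. CD69 was highest in U937 at 24.7 ± 0.0225 CPM and JURKAT at 18.7 ± 2.61 CPM, then RAMOS at 7.73 ± 0.702, NALM6 at 0.593, THP1 at 0.259 CPM and 697 at no reads, and each step passed. ICAM1 fell off from RAMOS at 123 ± 3.88 CPM through U937 at 66.4, NALM6 at 23.0, JURKAT at 8.65 and THP1 at 4.05 CPM to 697 at 3.14 ± 0.366 CPM, and each step passed, the last with an edgeR adjusted p of 0.0233. In CD58 the ends were the other way round, with 697 at 55.8 ± 2.07 CPM and NALM6 at 40.2 ± 1.32 CPM on top, THP1 at 23.5 and U937 at 23.1 CPM not told apart (edgeR adjusted p = 0.861), then JURKAT at 7.69 and RAMOS at 3.51 ± 0.0943 CPM.

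The etoposide effect was then compared between lines, as the difference of signed log2 changes in 1 edgeR fit of all 34 libraries. A larger effect means a higher log2 change, so a fall counts as smaller. The filter on low reads was applied over all libraries here, so genes that were not tested within a line also enter these differences. The mean effect in the pre-B lines exceeded the mean effect in the 4 other lines for 6 of the 8 genes and was smaller for 1, where 30.7% of all genes had the larger effect, 28.1% the smaller and 58.8% either. ICAM1 differed most among those with reads in every group, by a log2 value of 4.62 ± 0.08 (edgeR adjusted p = 3.02e-54). CD274 differed by 2.26 ± 0.37, ICOSLG by 1.67 ± 0.17 and CD83 by 1.22 ± 0.05. For CD83 this holds for the means only, since RAMOS had a higher log2 change than either pre-B line. CD274 had 3 reads over the U937 controls and ICOSLG 7 over the JURKAT controls, and neither was tested within that line. CD86 differed by 1.51 ± 0.74 (edgeR adjusted p = 0.0284), a call that was lost without 697 etoposide replicate 2 (adjusted p = 0.192), 697 control replicate 3 (0.0978), NALM6 etoposide replicate 2 (0.0621) or NALM6 control replicate 2 (0.0530). CD86 passed in neither pre-B line by itself, and 697 enters this difference with 2 reads over its controls. CD69 also differed (edgeR adjusted p = 1.07e-25), but its size has no finite value because 697 controls held no reads. CD58 was the gene with the smaller mean effect in the pre-B lines, by -0.42 ± 0.09 (edgeR adjusted p = 1.29e-05). Its large rise was in RAMOS, while the log2 changes of JURKAT, THP1 and U937 lay near those of the pre-B lines. CD80 did not pass in edgeR (adjusted p = 1.0) with 3 control groups at 0 reads, but passed in DESeq2 (adjusted p = 5.66e-15), so its result depends on the tool. All these pre-B effects carry the pool difference named above.

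RAMOS and JURKAT, both lymphoid and each within 1 pool, differed in 7 of the 8 genes. The log2 change was higher in RAMOS for 5 and lower in RAMOS for 2. CD80, CD86 and ICOSLG had too few reads to be tested within JURKAT, with 13, 20 and 7 reads over its controls. They enter here through the filter over all 34 libraries, so their differences rest on few JURKAT reads. Of all genes, 16.9% had the higher log2 change in RAMOS, 18.9% the lower and 35.8% either. CD83 rose more in RAMOS by 3.40 ± 0.09, CD80 by 3.39 ± 0.74, ICAM1 by 3.004 ± 0.12 and CD58 by 2.04 ± 0.19 on the log2 scale. CD80 did not pass without JURKAT control replicate 3 (difference 2.55, adjusted p = 0.0949). The CD86 difference of 1.48 ± 0.57 passed with an edgeR adjusted p of 0.0401 and was lost without any 1 of several libraries: RAMOS control replicates 1 and 2, RAMOS etoposide replicates 2 and 3, JURKAT control replicates 2 and 3 or JURKAT etoposide replicate 1 (adjusted p from 0.0504 to 0.185). CD69 had the larger change in JURKAT (RAMOS minus JURKAT -1.25 ± 0.17, edgeR adjusted p = 6.92e-09). CD274 also had the lower log2 change in RAMOS (-1.66 ± 0.53, edgeR adjusted p = 0.00756). It fell in RAMOS (-1.13 ± 0.37) and did not pass in JURKAT (0.53 ± 0.36). ICOSLG did not pass (0.44 ± 0.65, edgeR adjusted p = 0.710).

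The 2 pre-B lines differed from each other in 4 genes, where 15.1% of all genes had the larger effect in NALM6, 16.1% the smaller and 31.2% either. CD83 and ICOSLG rose more in NALM6, by 1.24 ± 0.09 and 1.08 ± 0.11, and ICAM1 and CD274 rose more in 697, by 2.61 and 1.27 (NALM6 minus 697 -2.61 ± 0.14 and -1.27 ± 0.37). THP1 exceeded U937 in CD83 by 0.67 ± 0.09, in ICAM1 by 0.88 ± 0.13 and in ICOSLG by 0.33 ± 0.10, where 5.96% of all genes had the larger effect in THP1, 7.06% the smaller and 13% either. The ICOSLG call (edgeR adjusted p = 0.0247) was lost without THP1 etoposide replicate 1 (0.0736), U937 control replicate 1 (0.160) or U937 etoposide replicate 3 (0.0910). The mean effect of the myeloid lines was smaller than the mean effect of RAMOS and JURKAT in CD83 (-1.12 ± 0.06), CD58 (-0.70 ± 0.12) and ICAM1 (-0.56 ± 0.09). In each of these genes RAMOS had the highest log2 change and JURKAT the lowest, so both myeloid lines lay above JURKAT. For ICAM1 the log2 changes were 2.96 in RAMOS, 1.33 in THP1, 0.45 in U937 and -0.05 in JURKAT. The effect was larger in the myeloid lines for 12.4% of all genes, smaller for 9.47% and either for 21.9%. The other 5 genes did not pass. Among these, CD274 passed without THP1 control replicate 3 (difference 1.49, adjusted p = 0.0460), CD86 without THP1 etoposide replicate 2 (-1.48, adjusted p = 0.0119), and ICOSLG without JURKAT control replicate 3 (-1.27, adjusted p = 0.0216) or JURKAT etoposide replicate 1 (-1.06, adjusted p = 0.00711). CD86 also came to differ between THP1 and U937 without THP1 etoposide replicate 2 (-2.12, adjusted p = 0.0491).

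**Figure D3:**
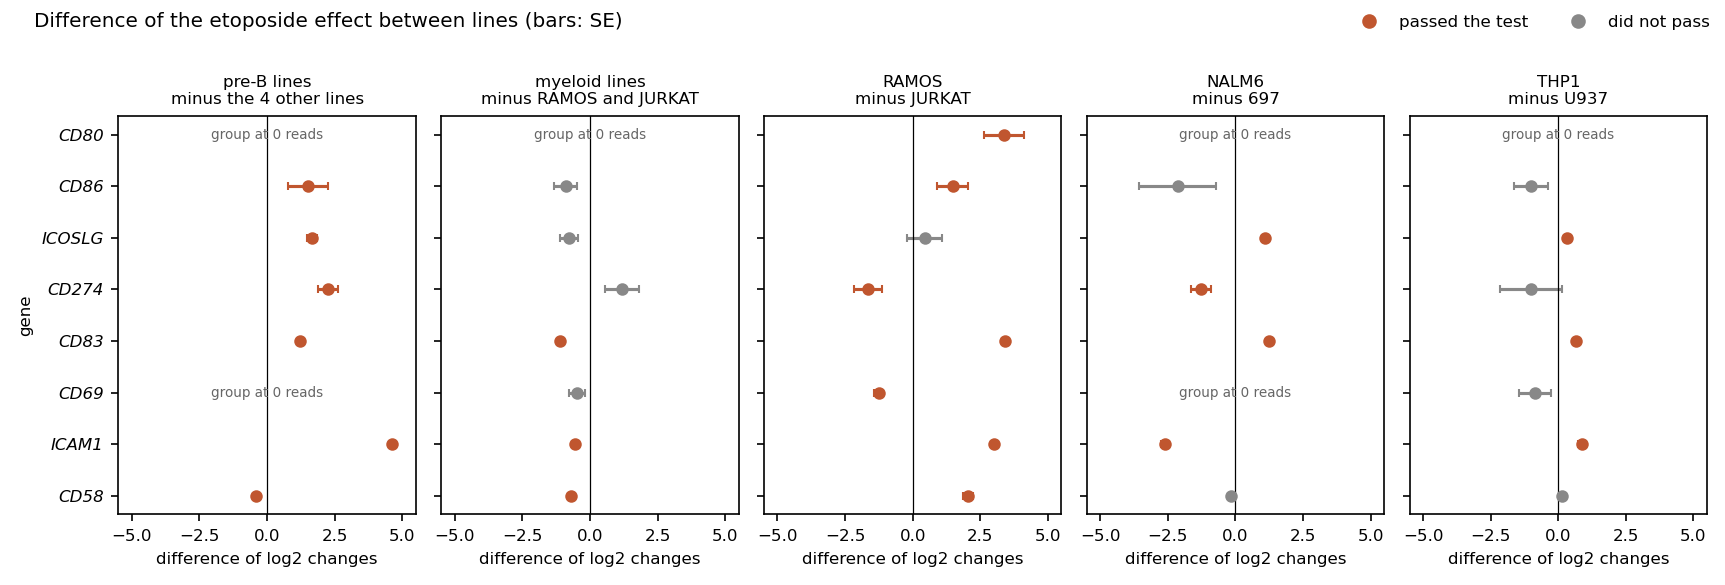
Difference of the log2 change between lines for each gene, first minus second as titled, with bars for the SE, orange where the edgeR test passed and grey where it did not. ICAM1 lies at 4.62 for the pre-B lines against the others, and rows marked "group at 0 reads" have no finite difference.

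Of the receptors that the B7 ligands bind, CD28 was high in JURKAT and low in the other lines. CD28, the receptor of CD80 and CD86, stood at 99.4 ± 0.138 CPM in JURKAT controls and fell slightly to 84.6 ± 6.55 CPM (log2 change -0.24 ± 0.06, edgeR adjusted p = 0.0150). CTLA4 had at most 2 reads in any group. PDCD1, which encodes PD-1, held 1.62 ± 0.396 CPM in JURKAT controls and 2.01 ± 0.194 CPM after etoposide and did not pass (edgeR adjusted p = 0.530). CTLA4, PDCD1 and CD2 are given as receptors of the 8 genes and were picked after their values were seen. Of the 7 receptors of the B7 family 5 were tested in JURKAT, of which CD28 fell and the rest did not pass, where 6.71% of all genes were higher and 6.27% lower. The 1 tested in NALM6 fell, the 1 tested in 697 rose, the 2 tested in RAMOS fell, and none was tested in THP1 or U937. Over all genes 41.3% were higher and 40.3% lower in NALM6, 39.4% and 36.9% in 697, and 34.2% and 35.5% in RAMOS. In RAMOS BTLA, an inhibitory receptor of B and T cells, fell from 6.53 ± 0.431 to 0.858 ± 0.550 CPM (log2 change -2.89 ± 0.29, edgeR adjusted p = 2.21e-14), and CD28 fell from 1.96 ± 0.632 to 0.687 ± 0.0851 CPM. In 697 ICOS, the receptor of ICOSLG, rose from 0 reads to 33 reads (edgeR adjusted p = 7.53e-05).

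On the adhesion side, ITGAL, the alpha chain of LFA-1 that binds ICAM1, fell in RAMOS from 278 ± 16.9 to 63.6 ± 3.62 CPM (log2 change -2.13 ± 0.05, edgeR adjusted p = 1.54e-39) while ICAM1 itself rose there. ITGAL also fell in THP1 (-0.19 ± 0.04) and U937 (-0.19 ± 0.06). ITGAM, the alpha chain of Mac-1 that also binds ICAM1, rose in both pre-B lines, from 2 reads over the 697 controls to 80.4 ± 5.18 CPM and from 1 read over the NALM6 controls to 7.33 ± 1.92 CPM. ITGB2, the shared beta chain, fell in NALM6 (-0.32 ± 0.12), 697 (-0.24 ± 0.08) and U937 (-0.28 ± 0.05). CD2, which binds CD58, was at 15.4 ± 1.09 CPM in JURKAT controls and 12.9 ± 1.14 CPM after etoposide and did not pass (edgeR adjusted p = 0.145).

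All 5 ICAM genes rose in NALM6, 3 of 5 rose in 697 and in RAMOS, where ICAM2 fell, none of 5 passed in JURKAT, 1 of 3 tested rose in THP1, and in U937 2 of 5 rose and ICAM3 fell. Of all genes 41.3% rose in NALM6, 39.4% in 697, 34.2% in RAMOS, 6.71% in JURKAT, 14% in THP1 and 22.1% in U937. ICAM4, a red cell adhesion protein, rose in NALM6 from 1.11 ± 0.0831 to 8.31 ± 1.06 CPM, and ICAM5, first known from neurons, rose in RAMOS from 28.3 ± 3.53 to 79.9 ± 1.68 CPM. Of 10 B7 family ligands, which include CD80, CD86, CD274 and ICOSLG, NCR3LG1 was not analysed here. Of the rest, 4 of 5 tested rose in NALM6 and 4 of 6 in 697, 3 rose and 3 fell of 6 in RAMOS, none of 3 passed in JURKAT, 1 rose and 1 fell of 6 in THP1, and 2 fell of 5 in U937. Beside these counts, 41.3% of all genes were higher and 40.3% lower in NALM6, 39.4% and 36.9% in 697, and 34.2% and 35.5% in RAMOS. In JURKAT the shares were 6.71% and 6.27%, in THP1 14% and 17.0%, and in U937 22.1% and 22.1%. Most of the B7 ligands that rose were among the 8 genes. The falling ones in the myeloid lines were C10orf54, which encodes the inhibitory ligand VISTA (THP1 -0.25 ± 0.06, U937 -0.73 ± 0.07), and CD276, which encodes B7-H3 (U937 -0.39 ± 0.08). The falling ones in RAMOS were CD274, C10orf54 and PDCD1LG2, the second ligand of PD-1 and a neighbour of CD274 on the chromosome. C10orf54 fell there from 3.86 ± 0.848 to 1.01 ± 0.0376 CPM (log2 change -1.97 ± 0.28, edgeR adjusted p = 4.69e-09). PDCD1LG2 fell from 1.37 ± 0.285 to 0.479 ± 0.177 CPM (log2 change -1.64 ± 0.43, edgeR adjusted p = 0.000320).

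Most factors and feedback genes of NF-κB rose in 5 lines. All 14 rose in NALM6, 697 and RAMOS, 13 of 14 in THP1 and 9 of 14 in U937, and 3 of 14 in JURKAT, with none falling in any line. Of all genes 41.3% rose in NALM6, 39.4% in 697, 34.2% in RAMOS, 14% in THP1, 22.1% in U937 and 6.71% in JURKAT. The median log2 change of the list was 3.48, 3.86, 2.35, 1.19, 0.52 and 0.09 in NALM6, 697, RAMOS, THP1, U937 and JURKAT. NFKBIA, the inhibitor that resets the pathway, rose 9.62-fold in NALM6, 13.4-fold in 697, 7.25-fold in RAMOS, 3.63-fold in THP1 and 1.76-fold in U937. In JURKAT the 3 that rose were RELB (2.863 to 5.742 CPM on average, log2 change 1.00 ± 0.19, edgeR adjusted p = 0.000990), REL (0.48 ± 0.11) and NFKB2 (0.37 ± 0.11). This list was written with earlier results of these data known.

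Of the other activation markers 6 rose and 5 fell of 12 tested in NALM6, 5 and 6 of 12 in 697, 4 and 2 of 8 in RAMOS, none and 3 of 8 in JURKAT, 2 and 2 of 9 in THP1, and 1 and 4 of 9 in U937. With 41.3% of all genes higher and 40.3% lower in NALM6, and 39.4% and 36.9% in 697, the counts in the pre-B lines lie near the share over all genes. In RAMOS 34.2% of all genes were higher and 35.5% lower, and in JURKAT 6.71% and 6.27%. The shares were 14% and 17.0% in THP1 and 22.1% and 22.1% in U937. CD40, the receptor through which T cells license B cells, rose from 0.101 ± 0.0881 to 32.5 ± 0.599 CPM in NALM6, from 0.243 ± 0.220 to 98.0 ± 0.238 CPM in 697 and from 26.5 ± 2.19 to 565 ± 16.3 CPM in RAMOS. CD70, the ligand of CD27, rose 14.2-fold in NALM6, 11.99-fold in 697 and 12.3-fold in RAMOS. In JURKAT TNFRSF8, which encodes CD30, fell by 0.67 on the log2 scale (SE 0.08).

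Among other adhesion molecules, 3 of 7 tested fell in NALM6, 3 of 9 in 697, 4 of 6 in RAMOS, 5 of 10 in JURKAT, and 4 of 9 in both THP1 and U937, while 2, 4, 1, 0, 0 and 0 rose. Of all genes 40.3% fell in NALM6, 36.9% in 697, 35.5% in RAMOS, 6.27% in JURKAT, 17.0% in THP1 and 22.1% in U937. The counts of falls in NALM6 and 697 lie near the share over all genes. In the same order of lines 41.3%, 39.4%, 34.2%, 6.71%, 14% and 22.1% of all genes rose. CD47, which shields cells from macrophages, fell in NALM6 from 229 ± 2.87 to 77.7 ± 0.709 CPM, in 697 from 143 ± 6.47 to 51.8 ± 10.1 CPM and in RAMOS from 50.9 ± 3.07 to 33.0 ± 1.01 CPM. Of the NK receptor ligands 3 of 6 tested rose in NALM6, 3 of 5 in 697, 3 of 5 in RAMOS, 1 of 8 in JURKAT, 3 of 8 in THP1 and 3 of 8 in U937, where 41.3%, 39.4%, 34.2%, 6.71%, 14% and 22.1% of all genes rose. In the same order of lines 3, 1, 1, 0, 0 and 1 of them fell, where 40.3%, 36.9%, 35.5%, 6.27%, 17.0% and 22.1% of all genes fell. ULBP2, a ligand of the NK receptor NKG2D, rose in NALM6 from 7.19 ± 0.368 to 24.0 ± 1.01 CPM and in THP1 from 2.61 ± 0.684 to 5.70 ± 0.429 CPM.

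Of 10 regulators of PD-L1, 4 rose and 5 fell in NALM6, 5 and 3 in 697, 5 and 3 in RAMOS, none and 1 in JURKAT, 2 and 4 in THP1, and 3 and 3 in U937. Of all genes, 41.3% rose and 40.3% fell in NALM6, 39.4% and 36.9% in 697, and 34.2% and 35.5% in RAMOS. These shares were 6.71% and 6.27% in JURKAT, 14% and 17.0% in THP1, and 22.1% and 22.1% in U937. The counts in NALM6 and 697 lie near the share over all genes. IRF1, an activator of CD274, rose in RAMOS 3.99-fold (log2 change 2.00 ± 0.07), where CD274 fell, and rose 2.03-fold in NALM6, where CD274 rose. IRF2 fell in NALM6 (-1.53 ± 0.07), 697 (-2.62 ± 0.10) and RAMOS (-1.64 ± 0.07).

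**Figure D4:**
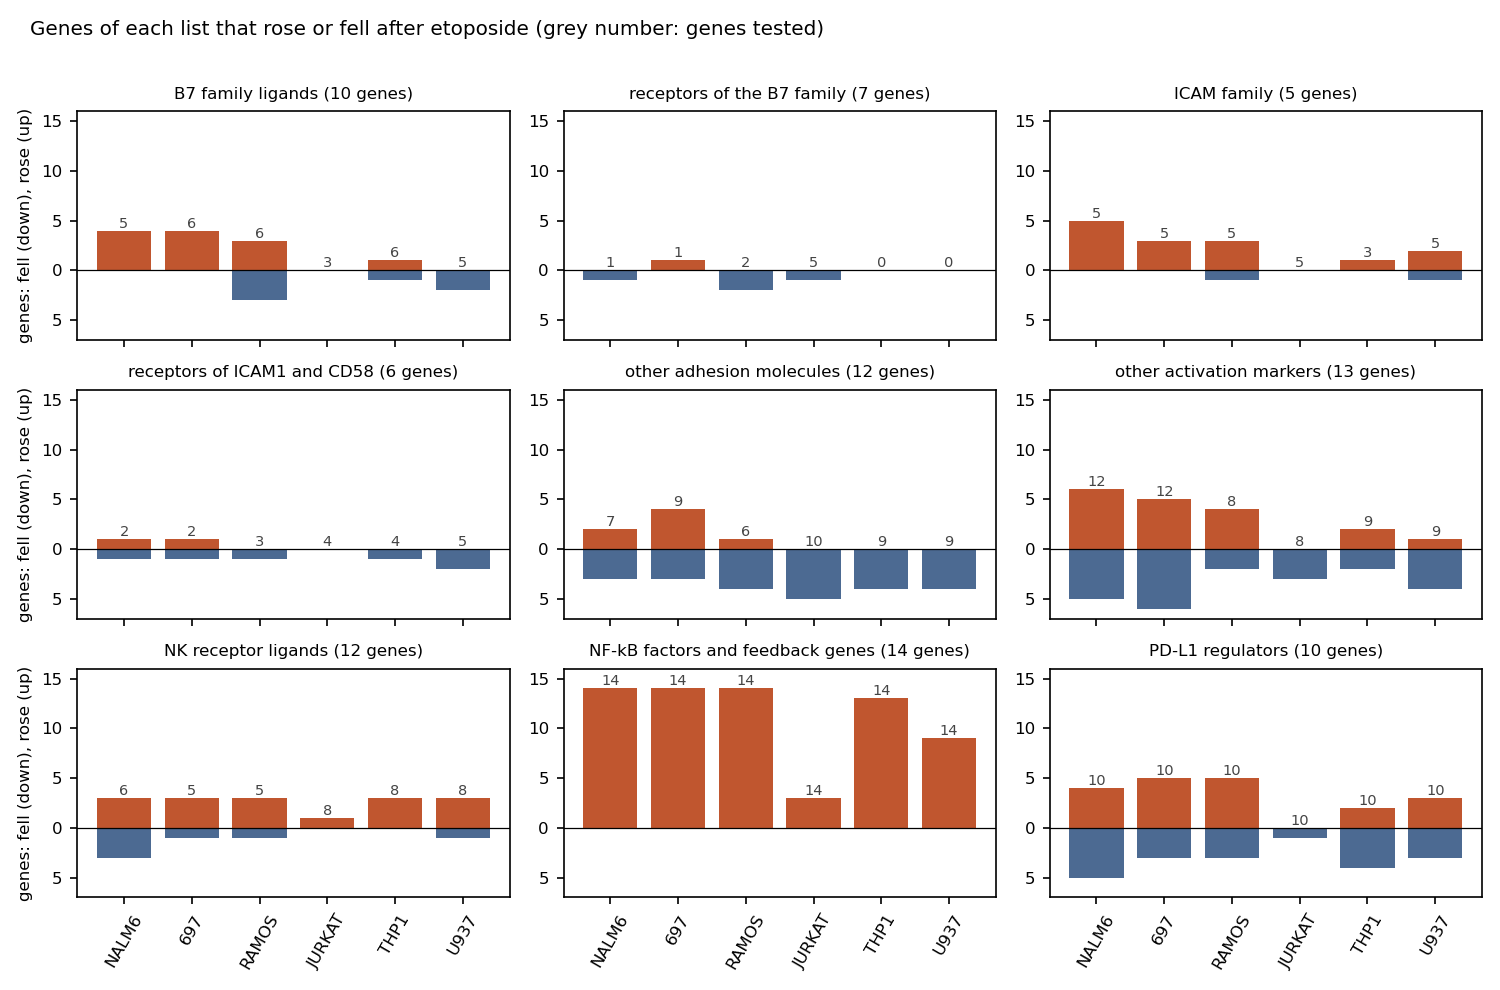
Number of genes of each list that rose (up, orange) or fell (down, blue) after etoposide in each line, with the number tested in grey above. All 14 NF-κB factors and feedback genes rose in NALM6, 697 and RAMOS, against 3 of 14 in JURKAT.

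Summed cell type markers also differed between the groups. Pre-B markers were lower after etoposide in the pre-B lines, at 1391 to 1510 CPM in NALM6 and 1536 to 1596 CPM in 697, B markers in RAMOS at 2662 to 2736 CPM, and T markers in JURKAT at 1733 to 1831 CPM. T markers in 697 were at 73.5 to 76.8 CPM in controls and 32.0 to 37.1 CPM after etoposide. The 8 dendritic markers summed to 1.02 to 1.33 CPM in NALM6 controls and 26.2 to 28.0 CPM after etoposide. Most of that difference was CCR7, a chemokine receptor that guides cells to lymph nodes (0.281 ± 0.200 to 20.4 ± 1.06 CPM), and LAMP3, a lysosomal protein of mature dendritic cells (0.1499 ± 0.185 to 4.27 ± 0.387 CPM). In 697 the dendritic sum was 126 to 128 CPM and then 132 to 138 CPM, with CCR7 going from 25.8 ± 2.49 to 76.5 ± 1.53 CPM and FLT3, a receptor of early blood cells, from 94.9 ± 4.02 to 50.2 ± 5.35 CPM. In RAMOS the dendritic sum was 19.25 to 22.9 CPM in controls and 24.5 to 26.3 CPM after etoposide. LAMP3 went from 1.38 ± 0.494 to 9.05 ± 1.62 CPM in RAMOS, while CD1C, another of these markers, went from 19.4 ± 2.06 to 15.8 ± 1.05 CPM. In JURKAT the dendritic sum was lower after etoposide, at 323 to 341 CPM in controls and then 256 to 290 CPM. CLEC9A and CLEC4C were at 0 reads in both pre-B lines and in RAMOS, in controls and after etoposide, and FCER1A was at 0 reads in the controls of these 3 lines and had reads after etoposide in both pre-B lines. Myeloid markers summed to 8.42 to 8.70 CPM in NALM6 controls and 14.5 to 16.4 CPM after etoposide, with ELANE and CSF3R at 0 reads. The 7 endothelial or stromal markers summed to 3.06 to 3.93 CPM in NALM6 controls and 24.0 to 24.7 CPM after etoposide, to 80.5 to 85.2 and then 116.5 to 118.5 CPM in 697, and to 0.0468 to 0.121 and then 3.15 to 4.19 CPM in RAMOS. COL1A1, a collagen chain, had the largest difference among them in each of these lines, with 13.8 ± 1.38 CPM in NALM6, 82.2 ± 1.38 CPM in 697 and 3.59 ± 0.547 CPM in RAMOS after etoposide. The 697 sum holds changes in both directions: COL1A1 rose from 9.45 ± 0.732 CPM, while PDGFRB went from 72.2 ± 2.16 to 32.3 ± 0.0839 CPM. In NALM6 PDGFRB went up, from 2.02 ± 0.653 to 8.56 ± 1.17 CPM. DCN was at 0 reads in both pre-B lines. The part of these markers in the results was not tested.

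Over the 12 group means, the patterns of the 8 genes were compared as Pearson's r of log2(CPM + 0.5). Groups of a line share libraries' pool and line, so r is given as a description. The closest pairs among the 8 were CD80 and CD83 (r = 0.838), CD83 and ICAM1 (r = 0.785) and CD80 and ICAM1 (r = 0.756), and the most opposed were CD86 and CD58 (r = -0.511). Among 14379 protein-coding genes, the pattern most like CD80 was that of CHRNA6 (r = 0.969), most like CD86 that of ADM (0.963), most like CD83 that of APLF (0.956) and most like CD69 that of RNF123 (0.916). ICAM1 came closest to C7orf43 (0.951), CD58 to GBE1 (0.940), CD274 to LOXL4 and TP53INP1 (0.934 each) and ICOSLG to DCXR (0.974).

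Genes next to the 8 on the chromosome did not all follow them. JARID2, a chromatin regulator next after CD83 on chromosome 6, fell in all 6 lines while CD83 rose, by 2.58 in 697 (SE 0.07) at one end and by 0.73 in JURKAT (SE 0.06) at the other on the log2 scale. ICAM4 follows ICAM1 on chromosome 19 and rose with it in NALM6, 697 and RAMOS but did not pass in U937 (0.01 ± 0.13), while MRPL4 on the other side rose in 697 (0.18 ± 0.07) and fell in RAMOS (-0.48 ± 0.04) and U937 (-0.41 ± 0.06). POGLUT1, the neighbour of CD80 on chromosome 3, rose in 5 lines, from 0.21 ± 0.07 in U937 to 1.65 ± 0.08 in 697.

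The authors' deposited table of each line gave the same call as here for 35 of the 37 gene and line pairs with a call in both. For CD86 in NALM6 the authors' deposited table has a log2 change of 1.36 with an adjusted p of 0.00957, where no call was made here. For CD58 in THP1 the authors' deposited table has an adjusted p of 0.0659, where the gene passed here. The authors' deposited table for NALM6 lists log2 changes of 5.06 for ICAM1 and 2.59 for CD274, where the fit here gave 4.52 and 1.94. For CD58 in NALM6 the authors' deposited table lists -0.59 (adjusted p = 0.149), where the fit here gave 0.00, and neither passed. DESeq2 run here on the deposited counts gave 4.51 for ICAM1, 1.93 for CD274 and -0.00347 for CD58 in NALM6, so these differences from the authors' deposited table were also there with DESeq2.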

How the data were processed

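Whole RNA, extracted with Trizol, had been turned into sequencing libraries using a TruSeq RNA kit (labels' protocols). Each deposited count file gives the number of reads, as whole counts, for every listed gene symbol. The submitters' processing notes name HISAT, HTSeq, DESeq2 and hg19, without versions. The authors' deposited tables hold a log2 fold change with its SE, a Wald score, p-values and a base mean signal, per the file headers. Only the log2 change, its SE and the adjusted p-value of these tables were used. In the tables of NALM6, JURKAT, THP1 and U937 the Wald score has the opposite sign of the log2 change.

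Counts were analysed in R 4.3.3 with edgeR 4.0.16. Within a line, genes had to pass filterByExpr with a minimum count of 10. They were scaled by TMM, and control was compared with etoposide by edgeR's robust quasi-likelihood test, two-sided, with Benjamini-Hochberg adjustment over all genes tested and a threshold of 0.05. Differences between lines were contrasts in 1 fit of all 34 libraries. Log2 changes within a line carry the SE of that line's fit. A group without reads was given a floor of 3 counts over the group, so its fold is a lower bound. With 1 to 3 reads in a group of a gene that was not tested, the ratio has a 95% exact counting interval. Floors and intervals cover counting error only. The fits were tested on simulated counts.

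All 8 genes are named in every line, and of each other list at most 3 genes per line with the smallest adjusted p. Outside this rule are CTLA4, PDCD1 and CD2, and C10orf54 and PDCD1LG2 in RAMOS, which are named because they fell. Of the 3 most similar patterns per gene, the first is printed. The 697 etoposide replicates are numbered as in the sample titles. The members and lists were chosen with earlier results of these data known. Libraries of 1 group differed by more than sampling noise, with a chi-square per degree of freedom from 1.85 to 9.71. No label says whether replicates were separate cultures, so a p-value here reflects spread among libraries that could be technical. Alternatives were RLE size factors, DESeq2 1.42.0, no filter on low counts, a replicate block, leaving out each library and, within a line, the fit of all 34 libraries.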

Additional observations from a re-analysis of the deposited data

Results flagged for a closer look

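Each result here is an etoposide effect that differed between lines by a contrast in the edgeR fit of all 34 libraries. Between the mean of NALM6 and 697 and the mean of the remaining 4, the difference of log2 changes was 2.26 for CD274, -0.42 for CD58, 1.22 for CD83, 1.51 for CD86, 4.62 for ICAM1 and 1.67 for ICOSLG, and the adjusted p for CD69 was 1.07e-25. For the myeloid lines minus RAMOS and JURKAT it was -0.70 for CD58, -1.12 for CD83 and -0.56 for ICAM1. For RAMOS minus JURKAT it was -1.66 for CD274, 2.04 for CD58, -1.25 for CD69, 3.39 for CD80, 3.40 for CD83, 1.48 for CD86 and 3.004 for ICAM1. For NALM6 minus 697 it was -1.27 for CD274, 1.24 for CD83, -2.61 for ICAM1 and 1.08 for ICOSLG. For THP1 minus U937 it was 0.67 for CD83, 0.88 for ICAM1 and 0.33 for ICOSLG.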

How the results depend on the processing

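The numbers of the 8 genes called in each line and each contrast stayed within 1.5 times under every alternative tried. The count of all genes called in JURKAT, 1806, ranged from 1095 to 1582 when each library was left out, the lowest without JURKAT etoposide replicate 1. Signs turned only for log2 values that had not passed. CD58 in NALM6 turned with no filter (-0.0418), in DESeq2 (-0.00347), in the fit of all libraries (-0.0168) and in a range from -0.11 to 0.11 with each library left out. ICAM1 in JURKAT ranged from -0.17 to 0.0476, CD58 in U937 from -0.01605 to 0.11, ICOSLG in U937 from -0.0648 to 0.0281 and the ICOSLG difference of RAMOS and JURKAT from -0.49 to 1.36 with each library left out. Control levels on total counts as deposited differed in 100 of 120 pairs. Whether replicate numbers pair the samples was not settled. Deviations of same-numbered libraries had r from -0.17 to 0.07. Deviations within a group of 2 or 3 libraries sum to 0, so these r values cannot exclude pairing. For 697 etoposide these r values, the block and the replicate names follow the sample titles, which number the libraries 1 and 2, whereas the file names have 2 and 3. Paired by file name, r was 0.00298 and 0.0149, and that block was not fitted. With the number as a block, 1276 genes were called in JURKAT (1806 without it) and 6518 in U937 (5849 without it). CD58 in U937 went to -0.0133 and ICOSLG in U937 to 0.02995, and the THP1 call of CD58 was lost (edgeR adjusted p = 0.0509). Lost too were the pre-B (0.0836) and RAMOS against JURKAT (0.0627) differences of CD86 and that of ICOSLG between THP1 and U937 (0.146). The myeloid difference of ICOSLG passed (0.0318). Depth limits CD80 in JURKAT, THP1 and U937, with at most 21 reads in a group, and CD274 in U937, with at most 17.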
